A study of Homo sapiens with 8 samples.

Results

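The genes described here were GLI1, GLI2, GLI3, GAS1, PTCH1, SMO, SUFU, BOC, CDON and DISP1, which encode the receptors, co-receptors, signal transducers and transcription factors of the Hedgehog pathway. They were chosen by name for their known roles, with earlier results of these data known. The genes made up 10 of the 21077 rows of the expression table. All 10 passed the filter on low values that left 15570 rows for testing. RNA-Seq was performed on Hs578T, an established human breast cancer line that lacks the estrogen receptor. Cells were kept for 48 hours in low glucose at 5 mM, which was the control, or in high glucose at 25 mM, with 4 libraries in each group. According to the study's methods, cell experiments of this kind used serum-free medium after conditioning in low glucose. The labels give no mannitol group, so the concentration of glucose and the osmolarity of the medium cannot be told apart in these 8 libraries. Whether the replicates were grown separately is not in the labels, and the tests therefore rest on a spread between libraries that may be technical only.

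Hedgehog ligands are secreted proteins that bind Patched-1 on the receiving cell. Without ligand, Patched-1 keeps Smoothened inactive, SUFU holds the GLI proteins, and GLI3 in particular is trimmed to a repressor. With ligand, Smoothened enters the primary cilium and GLI proteins act as activators, and in many tissues PTCH1, HHIP and GLI1 are themselves targets that rise with pathway activity, while the co-receptor genes GAS1, CDON and BOC are often repressed by it.

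Values are normalized signal in CPM, counts scaled to library size, on the scale the authors deposited. The estimated depth ran from 10244900 to 11956678 counts per library, at which 1 read was worth 0.0867 to 0.118 CPM. Libraries of the same group correlated at 0.992 to 0.995 across genes and libraries of different groups at 0.941 to 0.951, and no library stood apart within its group. The summed signal was 1205567 to 1229021 CPM in the low glucose libraries and 1017015 to 1036274 CPM in the others. Giving every library the same total therefore moved the median log2 fold change of all genes by 0.19 and raised the share of calls that were higher in high glucose from 48.9% to 62.8%. Summed signal of 6 mesenchymal marker genes ran from 60765 to 64634 CPM in the control group and from 39826 to 42126 CPM at 25 mM. Of these 6 genes 5 were called lower and 1 higher (72.9% of all genes were called), with a median log2 fold change of -0.18. ESR1 and PGR, the estrogen and progesterone receptors, together gave at most 0.360 CPM in any library, and the epithelial marker EPCAM was listed at 0 in all 8 libraries. Summed signal of 5 epithelial genes ran from 274 to 291 CPM in the control group and from 110 to 128 CPM at 25 mM. Of these genes EPCAM and KRT19 were not tested, and of the other 3 tested 2 were lower and 1 was not called. Leukocyte signal was 180 to 189 CPM in the control group and 92.9 to 98.2 CPM at 25 mM. Nearly all of it was CD68, which was lower, while PTPRC, at most 1.08 CPM, was higher and CD14 was not called. Endothelial signal was 1.95 to 2.77 CPM in the control group and 6.21 to 7.80 CPM at 25 mM. CDH5, the defining endothelial cadherin, was listed at 0 in all 8 libraries. The part of these shifts in the Hedgehog values was not tested. In a bulk sample, fewer cells that express a gene and less of its RNA per cell cannot be told apart.

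High glucose was accompanied by higher levels of 6 of the 10 genes (GAS1, PTCH1, GLI2, GLI3, SUFU and SMO) and lower levels of 4 (GLI1, CDON, BOC and DISP1), at a Benjamini-Hochberg adjusted p under 0.05 by limma. Across all genes tested, 72.9% were called, 35.7% higher and 37.2% lower, so most genes changed in this comparison and a call alone does not set the Hedgehog genes apart. The 2 groups of libraries did not overlap for any of the 10 genes, and they did not overlap for 66.7% of all genes tested. The median log2 fold change of the 10 genes was 0.44, against -0.00031 for all genes. In absolute size of the log2 fold change, GAS1 stood at the 99.8th percentile of all genes tested, PTCH1 at the 87.1st and GLI1 at the 86.1st. Nearer the middle were GLI2 at the 63.9th, GLI3 at the 60.7th, CDON at the 52.1st, SUFU at the 51.9th and SMO at the 38.6th. BOC was at the 29.6th and DISP1 at the 27.2nd. The calls for BOC and DISP1 were lost under other scalings of the libraries, and the other 8 genes were called under all 17 alternative settings.

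**Figure D1:**
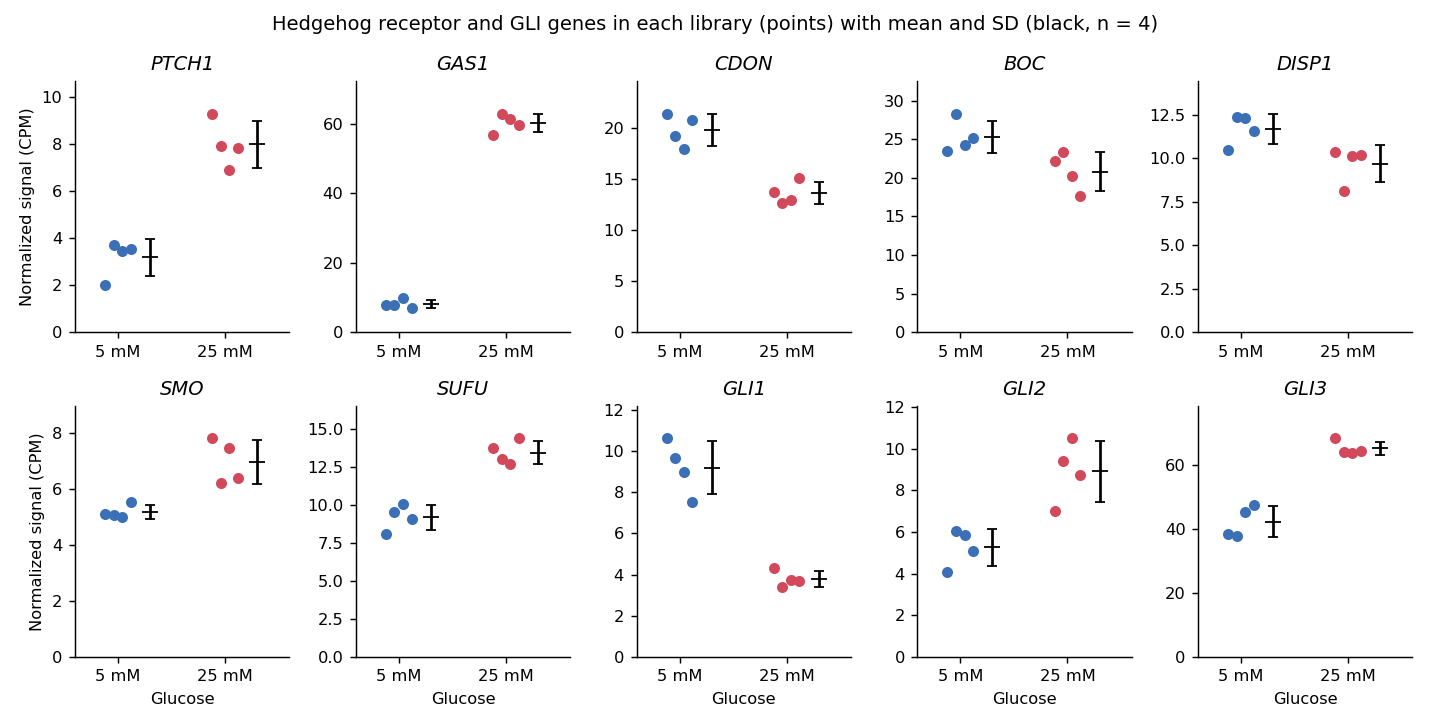
Normalized signal in CPM of the 10 Hedgehog genes on an axis from 0, with 1 point per library at 5 mM or 25 mM glucose and the mean with its SD in black (n = 4 per group). The points of the groups do not overlap in any panel, and the widest gap is that of GAS1, between 9.86 CPM and 56.9 CPM.

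PTCH1 (ENSG00000185920.15) encodes Patched-1, the ligand receptor that restrains Smoothened. The gene lies at chr9:95442980-95516971 in GRCh38. Its signal was 1.99, 3.71, 3.47 and 3.54 CPM in the low glucose libraries and 9.27, 7.92, 6.87 and 7.83 CPM in the high glucose libraries. Every high glucose library was above every low glucose library, and the first low glucose library lay below its 3 partners. The mean rose from 3.18 ± 0.796 to 7.97 ± 0.988 CPM (SD, n = 4), a ratio of 2.51 and a log2 fold change of 1.12 (SE 0.156, limma adjusted p = 9.80e-06). This was a low signal, with an estimated 18 to 107 reads per library.

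Because PTCH1 is a textbook GLI target, 1 of its 5 RefSeq promoter windows is shown, the only window of any of these genes that held the GLI binding motif. The window runs from 250 bases before to 50 bases after a transcription start, at chr9:95509217-95509516 on the minus strand of GRCh38.p14, and is printed 5′ to 3′ in the direction of the gene with the motif in capitals.
PTCH1: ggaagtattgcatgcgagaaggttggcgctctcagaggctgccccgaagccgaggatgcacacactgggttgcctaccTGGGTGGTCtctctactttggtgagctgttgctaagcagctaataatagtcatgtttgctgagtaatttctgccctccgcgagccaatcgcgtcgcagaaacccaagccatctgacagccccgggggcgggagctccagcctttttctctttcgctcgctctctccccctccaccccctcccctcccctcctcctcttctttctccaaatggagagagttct
The capitals are the reverse complement of the GLI consensus GACCACCCA, and they begin at position -172 from the start. An exact match of these 9 letters on either strand was found in 83 of 35116 promoter windows (0.236%). The shorter core CCACCCA, which the longer motif contains, occurred in 3227 windows (9.19%), among them 1 of GLI2 as TGGGTGG at position -164. Promoter windows were found for 8 of the 10 genes, 19 windows in all. A match describes the letters only, and binding was not measured.

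GAS1 (ENSG00000180447.7) encodes a membrane-anchored co-receptor that helps Patched-1 bind ligand and was first known as a gene of growth-arrested cells. It lies at chr9:86944362-86947506 in GRCh38. Signal was 7.86, 7.87, 9.86 and 6.96 CPM in low glucose and 56.9, 62.9, 61.4 and 59.6 CPM in high glucose. The lowest high glucose library was several times the highest low glucose library. The mean rose from 8.14 ± 1.23 to 60.2 ± 2.57 CPM (SD, n = 4), a ratio of 7.40. The log2 fold change of 2.75 (SE 0.0900, limma adjusted p = 5.49e-13) ranked 38th in absolute size among the 15570 genes.

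The other co-receptors, CDON and BOC, are related transmembrane proteins of the immunoglobulin and fibronectin type, and both went the opposite way from GAS1. CDON (ENSG00000064309.14, chr11:125956821-126063335) gave 21.4, 19.2, 17.9 and 20.8 CPM in low glucose and 13.7, 12.6, 13.0 and 15.1 CPM in high glucose. All low glucose libraries were above all high glucose libraries. The mean fell from 19.8 ± 1.57 to 13.6 ± 1.11 CPM, 1.46 times lower, with a log2 fold change of -0.51 (SE 0.0888, limma adjusted p = 9.36e-05).

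BOC (ENSG00000144857.14, chr3:113210926-113287459) gave 23.4, 28.3, 24.2 and 25.2 CPM in low glucose and 22.1, 23.3, 20.2 and 17.6 CPM in high glucose. The groups were separated by a narrow margin, between the first low and the second high glucose library. The log2 fold change was -0.27 (SE 0.0911, limma adjusted p = 0.0136). With equal library totals the BOC value was -0.04 (limma adjusted p = 0.707), so its call depended on the scaling. CDON kept its call at -0.28 with equal totals, and GAS1 was at 2.96.

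Ratios taken within a library do not depend on how libraries were scaled, apart from the added 1 CPM. The log2 ratio of CDON to GAS1 was 0.80 to 1.45 in the low glucose libraries and -2.23 to -1.91 in the high glucose libraries, a difference of -3.26 (SE 0.161). For BOC to GAS1 the ratio was 1.22 to 1.72 in low and -1.70 to -1.33 in high glucose, a difference of -3.03 (SE 0.148). Neither ratio overlapped between the groups, and each reached an exact two-sided permutation p of 0.0286, the smallest that 70 arrangements of the libraries allow (0.0400 adjusted over 7 ratios). That outcome was fixed by the single genes, since GAS1 rose and CDON and BOC fell without overlap, so it adds no support. The ratio of BOC to CDON was 0.13 to 0.53 in low and 0.21 to 0.83 in high glucose. These ranges overlapped, and the difference of 0.24 (SE 0.159) did not pass the exact permutation test (p = 0.171, adjusted p = 0.200). Ratios between genes also carry their lengths, so only their change between the groups is read.

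**Figure D2:**
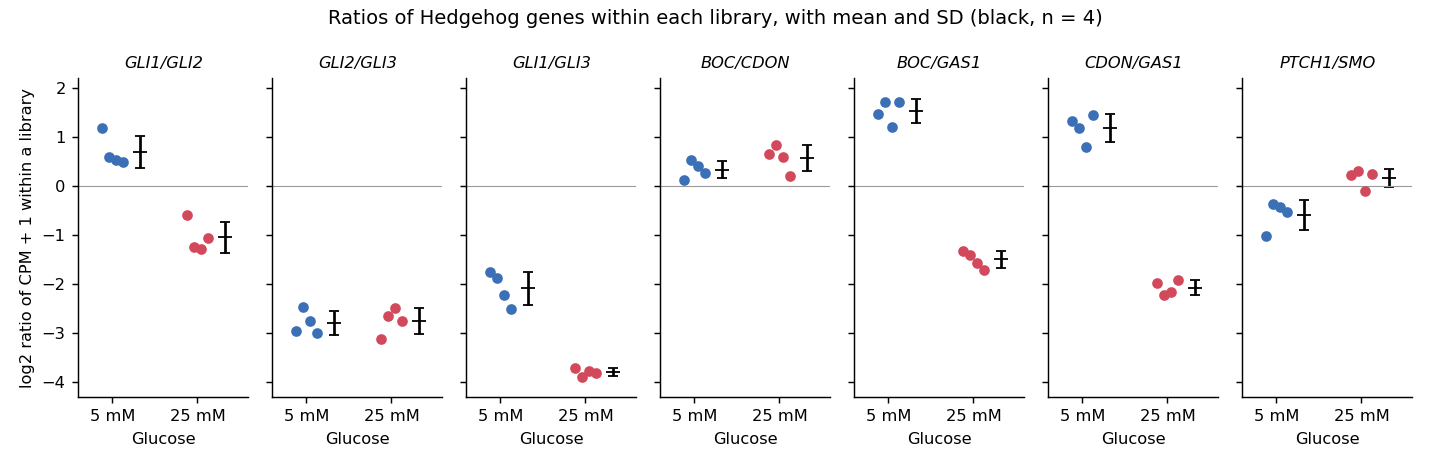
Log2 ratios of CPM + 1 between pairs of Hedgehog genes within each library, with 1 point per library at 5 mM or 25 mM glucose and the mean with its SD in black (n = 4). The ratios to GAS1, those of GLI1 and PTCH1/SMO separate the groups, while GLI2/GLI3 and BOC/CDON overlap.

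DISP1 (ENSG00000154309.8, chr1:222815039-223005995) encodes Dispatched-1, which releases lipid-modified ligand from the cells that make it. Its signal was 10.5, 12.4, 12.4 and 11.6 CPM in low glucose and 10.4, 8.12, 10.1 and 10.2 CPM in high glucose. The groups were parted only by the narrow gap between the first libraries of each, and the second high glucose library lay below its 3 partners. The log2 fold change of -0.25 (SE 0.106) was at the edge of the threshold (limma adjusted p = 0.0452). It was -0.03 with equal library totals (limma adjusted p = 0.835). Leaving out single libraries also ended the call, with limma adjusted p = 0.0987, 0.102 and 0.0690 without low glucose replicates 2, 3 and 4 and 0.152 and 0.0560 without high glucose replicates 2 and 3.

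SMO (ENSG00000128602.10, chr7:129188633-129213545) encodes Smoothened, the transducer that Patched-1 restrains. It gave 5.09, 5.06, 4.98 and 5.54 CPM in low glucose and 7.80, 6.21, 7.44 and 6.39 CPM in high glucose. The high glucose libraries were all above the low glucose libraries but were more spread. The mean rose from 5.17 ± 0.252 to 6.96 ± 0.779 CPM, with a log2 fold change of 0.36 (SE 0.117, limma adjusted p = 0.0113) that was 0.56 with equal library totals. PTCH1 rose by more than SMO. Their log2 ratio was -1.03 to -0.36 in low and -0.10 to 0.31 in high glucose, a difference of 0.76 (SE 0.177, exact permutation p = 0.0286, adjusted p = 0.0400).

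SUFU (ENSG00000107882.11, chr10:102502819-102633535) encodes the protein that binds GLI factors in the cytoplasm and restrains them. Signal was 8.08, 9.56, 10.1 and 9.08 CPM in low glucose and 13.8, 13.0, 12.7 and 14.4 CPM in high glucose. The groups were clearly apart, and the mean rose from 9.20 ± 0.850 to 13.5 ± 0.770 CPM. This was a log2 fold change of 0.51 (SE 0.0984, limma adjusted p = 0.000255).

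The GLI genes encode zinc finger transcription factors at the end of the pathway. GLI1, an activator and itself a usual target of the pathway, fell, while GLI2, the main activator at the start of a response, and GLI3, the main repressor, rose. GLI1 (ENSG00000111087.10, chr12:57459785-57472268) gave 10.6, 9.67, 8.99 and 7.55 CPM in low glucose and 4.33, 3.41, 3.72 and 3.69 CPM in high glucose. The mean fell from 9.21 ± 1.29 to 3.79 ± 0.390 CPM, 2.43 times lower. On the log2 scale the change was -1.09 (SE 0.128, limma adjusted p = 1.48e-06), and it was -0.86 with equal library totals. An estimated 34 to 96 reads per library lay behind these values.

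GLI2 (ENSG00000074047.21, chr2:120735868-120992653) gave 4.10, 6.07, 5.85 and 5.07 CPM in low glucose and 7.02, 9.42, 10.5 and 8.74 CPM in high glucose. The first library of each group was the lowest of its group, and the groups did not overlap. GLI2 rose by 0.66 on the log2 scale (SE 0.142, limma adjusted p = 0.000630). GLI3 (ENSG00000106571.14, chr7:41960949-42264268) gave 38.4, 38.0, 45.3 and 47.6 CPM in low glucose and 68.5, 64.3, 63.9 and 64.7 CPM in high glucose. The high glucose libraries lay close together and well above the others. GLI3 rose from 42.3 ± 4.87 to 65.3 ± 2.12 CPM, with a log2 fold change of 0.62 (SE 0.0702, limma adjusted p = 9.64e-07).

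Within libraries, the log2 ratio of GLI1 to GLI3 was -2.51 to -1.76 in low and -3.89 to -3.70 in high glucose, a difference of -1.71 (SE 0.174). That of GLI1 to GLI2 was 0.49 to 1.19 in low and -1.28 to -0.59 in high glucose, a difference of -1.75 (SE 0.228). Both differences reached the smallest exact permutation p, 0.0286 (adjusted p = 0.0400). This was fixed by the single genes, since GLI1 fell and GLI2 and GLI3 rose without overlap, so it adds no support. The ratio of GLI2 to GLI3 overlapped between the groups and differed by 0.04 (SE 0.180, exact permutation p = 0.857, adjusted p = 0.857).

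**Figure D3:**
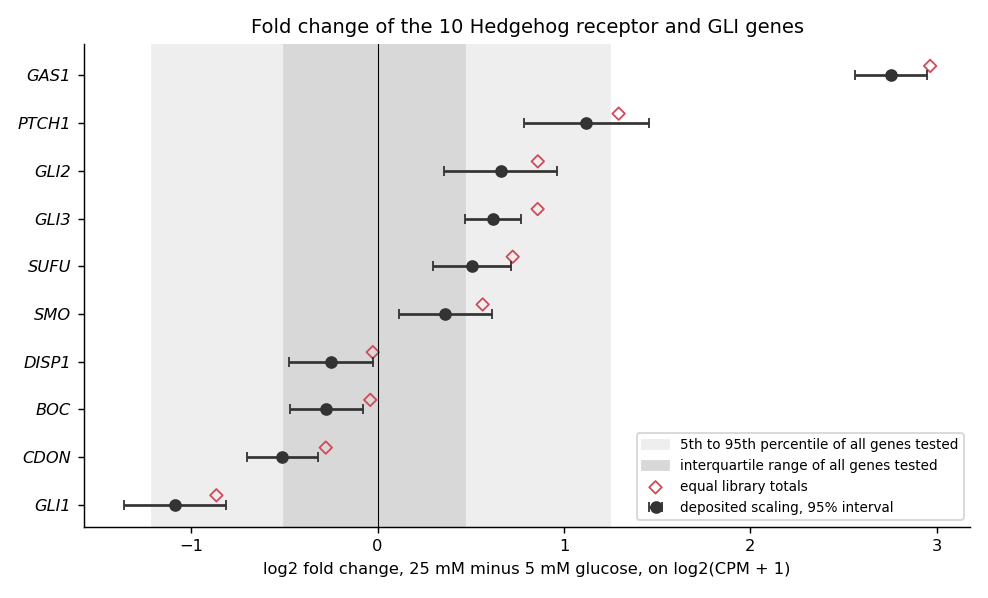
Log2 fold change of each gene, 25 mM minus 5 mM glucose on log2(CPM + 1), with its 95% interval (filled points) and the value with equal library totals (open diamonds), over the interquartile range (dark band) and the 5th to 95th percentile (light band) of all 15570 genes tested. GAS1 at 2.75 lies outside the light band, and the diamonds of BOC and DISP1 lie at -0.04 and -0.03.

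To set the genes side by side, CPM was divided by the length of each gene's canonical transcript in kb. In low glucose BOC and GLI3 were the highest, at 5.53 and 5.04 CPM per kb, and their libraries overlapped. GAS1 (2.59), DISP1 (2.44), CDON (2.40), GLI1 (2.32) and SUFU (1.83 CPM per kb) followed, each overlapping its neighbour in this order. SMO at 1.30, GLI2 at 0.739 and PTCH1 at 0.367 CPM per kb were lower and did not overlap each other. In high glucose GAS1 stood first at 19.1 CPM per kb, above GLI3 at 7.77, BOC at 4.55 and SUFU at 2.69, with no overlap among these. DISP1 (2.02), SMO (1.75) and CDON (1.65 CPM per kb) formed an overlapping run. GLI2 (1.25), GLI1 (0.954) and PTCH1 (0.921 CPM per kb) formed another, so that PTCH1 was below GLI1 in low glucose and level with it within the spread in high glucose.

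**Figure D4:**
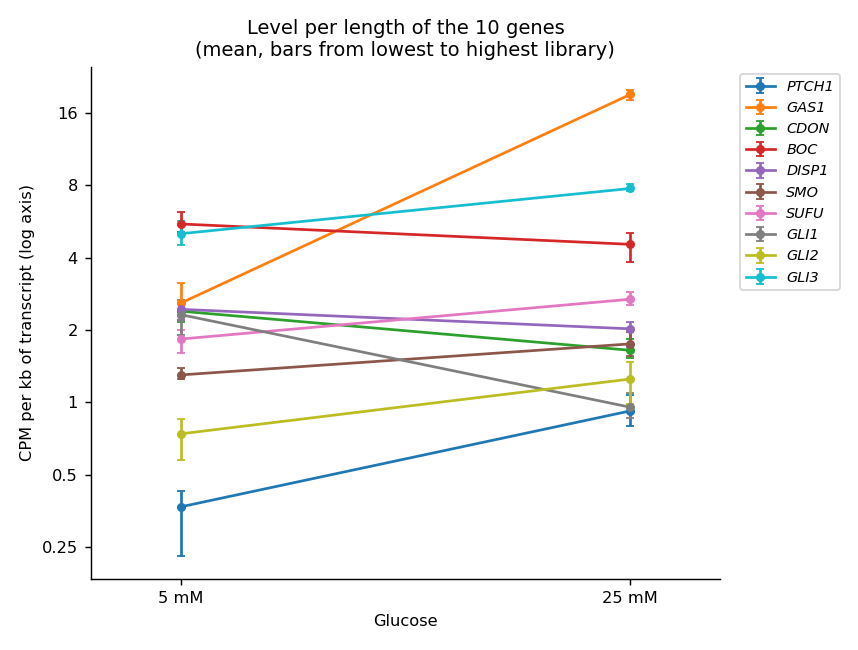
Mean level per transcript length (CPM per kb, log axis) of the 10 genes at 5 mM and 25 mM glucose, with bars from the lowest to the highest of 4 libraries. GAS1 moves from 2.59 to 19.1 and GLI1 from 2.32 to 0.954, and the other lines are flatter except that of PTCH1, from 0.367 to 0.921.

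RefSeq places other genes over part of most of these loci. BOC shares its span with CFAP44, PTCH1 with LOC100507346 and DISP1 with NDUFB1P2, while SMO, GAS1 and CDON have no overlapping entry. Use of strand in the counting was not given for these libraries, so the values of the overlapped genes may hold reads of their neighbours.

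Among genes for the ligands and their release, SHH was listed at 0 in all 8 libraries, where 3 counts would be 0.260 to 0.354 CPM. IHH and DHH were not tested, since each was absent from the expression table or failed the filter on low values. Of 6 genes tested in this list, 3 rose, 1 fell and 2 were not called (66.7% called, against 72.9% of all genes), with a median log2 fold change of 0.37. HHAT, which attaches the palmitate of the ligand, rose from 3.17 ± 0.412 to 5.23 ± 0.627 CPM (log2 fold change 0.58, limma adjusted p = 0.00110). The sheddases ADAM10 and ADAM17 moved oppositely, from 69.0 to 157 CPM (1.17) and from 119 to 76.9 CPM (-0.62, or -0.37 with equal library totals). SCUBE3, a secreted helper of ligand release, ran from 5.64 to 6.49 CPM in low glucose, overlapping the 6.41 to 7.84 CPM of high glucose (log2 fold change 0.28, limma adjusted p = 0.0351). Its adjusted p ranged from 0.00108 to 0.0842 over the alternatives, and the call was lost without low glucose replicates 1 (0.0702), 2 (0.0651) or 3 (0.0616) and without high glucose replicates 2 (0.0760), 3 (0.0820) or 4 (0.0842).

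Of 5 other ligand-binding proteins tested 4 were called, 2 higher and 2 lower (80.0%, against 72.9% of all genes). HHIP, a decoy that binds ligand and a usual pathway target, rose from 15.2 ± 1.54 to 24.9 ± 2.06 CPM, with a log2 fold change of 0.68 (SE 0.0897, limma adjusted p = 5.16e-06). The glypicans, cell surface proteoglycans, split, with GPC4 at 1.08, GPC1 at -0.62 (-0.38 with equal library totals) and GPC6 at -1.11 on the log2 scale.

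Genes that act between Smoothened and the GLI factors moved in both directions. Of 15 Smoothened regulators 6 rose, 7 fell and 2 were not called (86.7% called, against 72.9% of all genes), a median of 0.04. RAB23, a small GTPase that dampens the pathway, gave 368, 368, 368 and 370 CPM in low glucose and 66.6, 70.6, 77.0 and 80.4 CPM in high glucose, and fell by 2.31 on the log2 scale (SE 0.0507, limma adjusted p = 8.77e-15). TULP3, which carries receptors into the cilium, fell by 0.91, GNAS, a Gs alpha subunit, fell by 0.43 (by 0.18 with equal library totals and 0.11 with quantile normalization), and the beta-arrestin ARRB1 rose by 1.42. Of 23 GLI kinases, ligases and scaffolds 10 rose, 8 fell and 5 were not called (78.3% called, against 72.9% of all genes), a median of 0.11. With equal library totals 5 of them fell, where 4349 of all 15570 genes fell. CUL3, the cullin that works with SPOP in GLI turnover, rose by 1.51, the GLI deacetylase HDAC1 rose by 1.04, the kinase GSK3B rose by 0.52, and SPOPL, a relative of SPOP, fell by 1.04. Of 37 genes of the primary cilium 10 rose, 14 fell and 13 were not called (64.9% called, against 72.9% of all genes), a median of -0.06. With equal library totals 19 rose and 9 fell, where 7327 of all 15570 genes rose and 4349 fell. The transport components IFT52 and IFT22 fell by 1.52 and 0.85, the phosphatase INPP5E fell by 1.47, and the kinesin subunit KIF3B rose by 0.64.

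Of 22 GLI target genes tested, without the 10 genes above, 13 rose, 3 fell and 6 were not called, so 72.7% were called against 72.9% of all genes, with a median of 0.48. BMP4, a secreted growth factor, gave 3.43, 2.92, 3.03 and 2.12 CPM in low glucose and 61.5, 63.0, 59.7 and 59.3 CPM in high glucose, a log2 fold change of 4.01 (SE 0.105, limma adjusted p = 5.13e-14). PDGFRA, a growth factor receptor, rose from 103 to 247 CPM (1.26), the cyclin gene CCND1 from 373 to 687 CPM (0.88) and WNT5A, a secreted Wnt ligand, from 200.2 to 281 CPM (0.49). All of these genes have inputs other than Hedgehog.

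Of 30 genes tested from the Hallmark hedgehog set, which includes GLI1 and PTCH1, 11 rose, 13 fell and 6 were not called (80.0% called, against 72.9% of all genes), with a median of 0.06. HEY1, best known as a Notch effector, had the largest change of the set, from 163, 164, 156 and 161 CPM in low glucose to 8.58, 8.22, 10.9 and 9.91 CPM in high glucose (log2 fold change -3.97, SE 0.0744, limma adjusted p = 1.84e-15). The adhesion receptor ADGRG1 fell by 1.76 and the guidance receptor NRP2 fell by 1.19, while the cell cycle kinase CDK6 rose by 1.43.

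**Figure D5:**
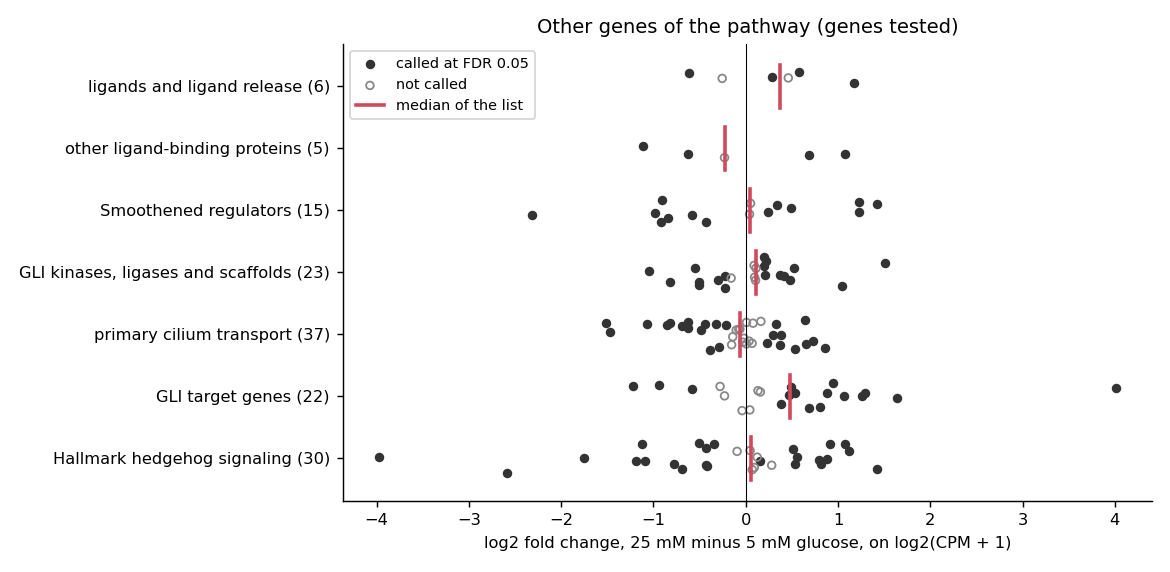
Log2 fold change (25 mM minus 5 mM glucose, on log2(CPM + 1)) of the tested genes in 7 lists of the Hedgehog pathway, filled where called at an FDR of 0.05 and open where not, with the median of each list as a red bar and vertical scatter for display only. The median of the GLI target genes is the highest, at 0.48, and HEY1 at -3.97 and BMP4 at 4.01 lie farthest out.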

How the data were processed

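RNA-Seq of 8 Hs578T libraries was used, 4 per group by their labels. The authors deposited 1 table of 21077 genes with normalized signal, read here as CPM with library factors, since columns sum to different totals. Per the submitters' processing notes hg38 and edgeR were used. The study's methods name an aligner, Tophat with hg19, for its tumors and not for these Hs578T libraries, whose aligner and counter are not known here. Between 71.3% and 73.7% of values under 50 reads were whole within 0.005 read, so the estimates are fractional and no count test was run.

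A minimum of 0.5 CPM in 2 or more libraries left 15570 genes, tested as log2(CPM + 1) with limma 3.58.1 in R 4.3.3 (empirical Bayes with trend, Benjamini-Hochberg, threshold 0.05). The added 1 CPM shrinks the fold changes of genes with low signal. Ratios of genes were compared by exact permutation over libraries. The fit was tested on simulated data with few changed genes, as many up as down. That setting differs from these libraries, so it cannot speak to how they should be scaled. Alternatives were pseudocounts of 0.1 and 5, filters, 3 other scalings, no trend, a replicate block and leaving out each library, 17 in all. Depth was estimated from the value of 1 read and limits the low genes.

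The 10 genes and all lists were chosen with earlier results of these data known. In each list up to 4 genes with the smallest p among those called are named, and other named genes were chosen after their values were seen (SHH and the overlapping genes). The value of 1 gene of the lists is not reported here. Positions and promoters are from RefSeq (GRCh38.p14). Promoter entries matched 8 of the 10 genes (all but GLI1 and GLI3). Transcript lengths are those of GENCODE canonical transcripts, used for length only.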

Additional observations from a re-analysis of the deposited data

Results flagged for a closer look

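In each group of 4 libraries, the highest and lowest value was compared with the rest, and a value was set aside for a closer look where its gap to the nearest other library, divided by the range, was above Dixon's 95% limit. Of 90 groups of values tested 6 passed, and chance flags about 1 in 20 groups. PTCH1 in the first low glucose library was 1.99 CPM, against 3.47 to 3.71 CPM in the other libraries of that group. DISP1 in the second high glucose library was 8.12 CPM, against 10.1 to 10.4 CPM. SCUBE3 in the first high glucose library was 6.41 CPM, against 7.72 to 7.84 CPM. IFT52 in the second low glucose library was 79.0 CPM, against 88.8 to 90.7 CPM. KIF3B in high glucose replicate 4 was 133 CPM, against 121 to 123 CPM. The log2 ratio of GLI1 to GLI2 in the first low glucose library was 1.19, against 0.49 to 0.59. The cause of these values was not tested.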

How the results depend on the processing

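Of 646 values, for 38 named genes under 17 alternatives, 625 kept their direction and side of the threshold, 21 lost their call and 0 changed sign. The filters, the fit without trend and the replicate block leave every fold change as it was, so no sign could change there. Of the 38 genes, 28 were named for the smallest p in their list, which favours kept calls. The lost calls belonged to 3 genes, BOC, DISP1 and SCUBE3. With equal library totals, quantile normalization or equal library medians, 2 of the 10 genes were called lower in place of 4. With equal totals the GLI kinases, ligases and scaffolds had 5 lower in place of 8, and the cilium genes had 19 higher and 9 lower in place of 10 and 14. With quantile normalization the ligand list had 2 lower in place of 1 and the GLI targets 5 in place of 3. Equal totals gave 7327 higher and 4349 lower genes in all, against 5553 and 5797. Relative to the shift of 0.19 in the median, GLI1 was at -1.06, GAS1 at 2.77 and PTCH1 at 1.10 there.

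Deviations of libraries with the same number correlated at -0.03, 0.11, 0.01 and 0.08, and not every library correlated best with its own number. Libraries with different numbers correlated at -0.15 to 0.08. With 4 libraries per group, these values cannot settle whether the numbers mark pairs. With the replicate block 11494 genes were called in place of 11350, and 6 of the 10 genes were higher and 3 lower, since DISP1 had limma adjusted p = 0.0589. Blocked ratios cannot go below an exact permutation p of 0.125. Without 1 library the GLI2/GLI3 difference took either sign. Depth limits PTCH1 most, with 18 reads in its lowest library.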

Other observations

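The GLI consensus GACCACCCA, searched on both strands, lay in the promoter windows of 81 genes, 39 of which were tested. Of these 14 were higher and 12 lower in high glucose and 13 were not called, so 66.7% were called against 72.9% of all genes tested, and the median log2 fold change was 0.13. The shorter core CCACCCA lay near 1310 tested genes, of which 462 were higher, 550 lower and 298 not called. So 77.3% of them were called against 72.9% of all genes tested, with a median of -0.05. PTCH1 is among the genes of both motifs, and GLI2 is among those of the shorter core. Both counts are given as a description, without a test.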
